A study of Homo sapiens with 8 samples.

Results

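The RNA of NCI-H1703R was compared with that of NCI-H1581R, the resistant variants of a pair of human non-small cell lung cancer cell lines whose growth depends on the fibroblast growth factor receptors (FGFR). The members are the 4 resistant libraries of a series of 8, 2 biological replicates for each resistant variant, and the other 4 libraries come from the sensitive parents NCI-H1581 and NCI-H1703. Both resistant variants had been selected with CPL304110, an FGFR inhibitor, from 50 nM upwards for 4 to 6 months, to a final 2.5 µM for NCI-H1581R and 5 µM for NCI-H1703R, and each is 1 selected population of 1 line. Both were grown with 10% serum and harvested 24 h after a change of medium. NCI-H1581R was kept in DMEM/F12 and NCI-H1703R in RPMI 1640, so the effects of cell line, medium and final dose cannot be told apart. The sources do not state whether the inhibitor was present during the last day.

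FGF receptors are tyrosine kinases of the cell surface. When a fibroblast growth factor binds, they phosphorylate the docking protein FRS2 and activate the ERK cascade, which raises a set of early genes together with its own inhibitors, the Sprouty, Spred and DUSP proteins. p38 kinases form a parallel MAP kinase branch that responds to stress. A tumour that loses its need for FGFR is known to be able to draw on other receptor kinases or on a change of lineage. For p38, the study that made these data reports a role in the resistance of both lines. These groups are therefore described below for both end states.

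The 4 resistant libraries held 36004317 to 39191672 estimated counts, and 18203 genes whose counts summed to 10 or more across the 8 libraries were tested. Values are given per library as counts per 1000000 counts of the library (CPM), which are not corrected for gene length, always with the 2 NCI-H1581R replicates before the 2 NCI-H1703R replicates or named. A log2 difference is NCI-H1703R minus NCI-H1581R. Its p-value comes from edgeR's quasi-likelihood test, adjusted by the Benjamini-Hochberg method over all genes tested, and a gene was called when it was under 0.1. Mitochondrial genes took 3.25% and 3.29% of counts in NCI-H1581R and 3.34% and 2.17% in NCI-H1703R. Replicates differed by more than sampling noise, and more so in NCI-H1581R (chi-square per degree of freedom 96.8) than in NCI-H1703R (31.9).

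The resistant lines differed in much of their transcriptome. Of 18203 genes, 9565 (52.5%) were called, 4711 (25.9%) higher in NCI-H1703R and 4854 (26.7%) higher in NCI-H1581R. A difference of at least 4-fold was found for 4198 called genes (23.1%), of which 1908 (10.5%) were higher in NCI-H1703R and 2290 (12.6%) were higher in NCI-H1581R. In 1634 of these, 1 of the lines had at most 3 counts in each replicate, and with 3 counts in place of such values 3669 genes were still at least 4-fold apart. The 2 replicates of 1 line lay wholly above those of the other in 12983 genes (71.3%). Without the first NCI-H1703R replicate the number of called genes fell to 6120, with an NCI-H1703R represented by a single library. The plot of mean levels shows the breadth of these differences.

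**Figure D1:**
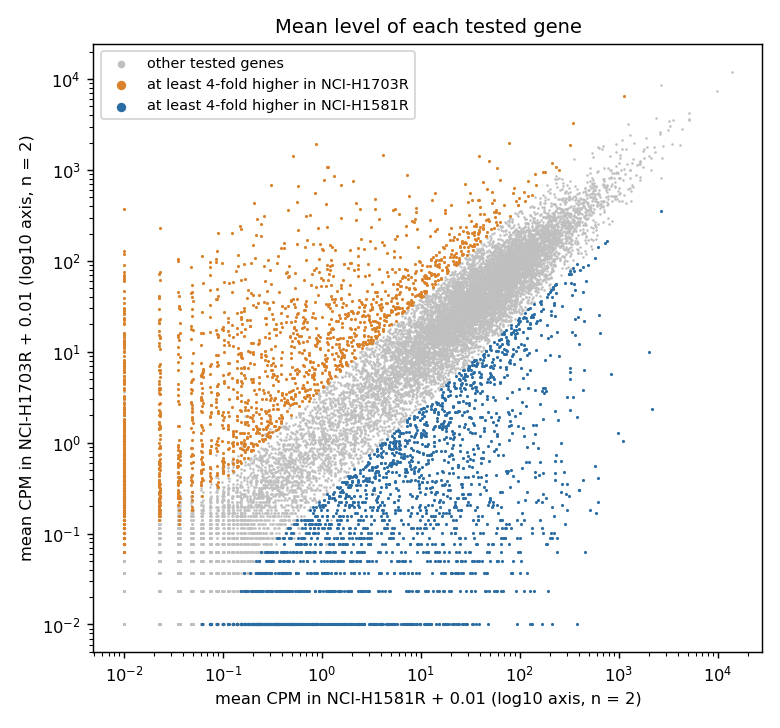
Mean CPM of each tested gene in NCI-H1581R (x axis) and NCI-H1703R (y axis), both log10 axes with 0.01 CPM added, n = 2 libraries per line. Called genes that were at least 4-fold apart are coloured (1908 higher in NCI-H1703R, 2290 higher in NCI-H1581R), and the bands along both axes are genes counted in 1 line and near 0 in the other.

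Some genes were counted in 1 resistant line and hardly at all in the other. With a mean of at least 5 CPM in 1 line and at most 3 counts in each replicate of the other, 125 genes (93 of them protein coding) were expressed in NCI-H1703R and 212 (176 protein coding) in NCI-H1581R. For these genes a ratio of the lines is given, from counts summed over replicates and divided by the summed normalised library sizes. It is given with its exact 95% counting interval. Where the other line had 0 counts, a lower bound against 3 counts per library is given instead. The interval and the bound cover counting error only. Among the genes with the highest CPM in NCI-H1581R was SRARP, which codes for a steroid receptor associated protein, with 509 and 412 CPM and 2 and 2 counts in NCI-H1703R (ratio 8698, counting interval 3397 to 31925, adjusted p = 1.6e-05). ABCB1 codes for P-glycoprotein, an efflux pump that removes many drugs from cells, and was read at 228 and 243 CPM against 1 and 3 counts (ratio 4464, counting interval 1743 to 16385, adjusted p = 1.6e-05). ALDH1A2, an enzyme that makes retinoic acid, had 148 and 106 CPM against 0 counts in both NCI-H1703R replicates (at least 1596-fold apart, adjusted p = 1.9e-04). The NCI-H1581R replicates were high and the NCI-H1703R replicates near 0 for all 3 genes, as the rule requires. SRARP and ALDH1A2 overlap genes on the opposite strand, whose reads could not be told apart from their own.

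In the same group, COCH (cochlin, a secreted protein; 176 and 162 CPM), the Wnt target SP5 (205 and 165 CPM) and the metalloproteinase ADAMTS19 (117 and 139 CPM) had between 0 and 3 counts per NCI-H1703R replicate. The cancer-testis gene PAGE4 was read at 211 and 174 CPM, LIX1 at 159.7 and 118 CPM, SLC35D3 at 125 and 113 CPM and RGS1, a regulator of G-protein signalling, at 102 and 120.1 CPM, again with at most 3 counts per NCI-H1703R replicate. The separation of these 10 genes follows from the rule that chose them, and COCH and ADAMTS19 overlap genes on the opposite strand.

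In NCI-H1703R, the gene of this kind with the highest CPM was MAGEA2, an X-linked gene that is normally read in the germ line, with 103 and 123 CPM and 1 and 3 counts in NCI-H1581R (ratio 2175, counting interval 849 to 7985, adjusted p = 1.8e-05). It has a near-identical copy, so its level is uncertain, and the same holds for CTAG1A, another germ-line gene (87.3 and 92.8 CPM, 0 counts in NCI-H1581R, at least 1156-fold apart, adjusted p = 7.8e-05). NR0B1, a nuclear receptor that represses transcription, was read at 74.9 and 74.5 CPM against 1 and 0 counts (ratio 5749.9, counting interval 1032 to 227147, adjusted p = 2.5e-05). CYP4F11, a fatty acid hydroxylase, had 77.7 and 67.1 CPM against 0 and 1 counts, and the chemokine CCL2, which attracts monocytes, had 51.8 and 72.2 CPM against 1 and 0 counts. ARMCX2, SNRPN, WDR81, MICA and SUN3 completed the 10 genes, at 99.04, 86.5, 74.8, 62.7 and 53.9 CPM on average in NCI-H1703R and at most 3 counts per NCI-H1581R replicate. SNRPN, WDR81 and MICA overlap other genes.

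The proximal promoters of 5 of these genes are shown because the lines did not transcribe the same ones and because CpG density is the feature by which promoters of constantly used and of restricted genes are commonly told apart. Each sequence holds the 250 bases before the RefSeq gene start (GRCh38.p14), written 5′ to 3′ on the strand of the gene, with CG dinucleotides in capitals. Which start the cells used was not determined, so a window may not be the promoter in use. For ALDH1A2 the annotated gene extends upstream of the window. SRARP lies at chr1:16003986-16004235 (plus strand), ABCB1 at chr7:87713296-87713545 (minus strand), ALDH1A2 at chr15:58065712-58065961 (minus strand), MAGEA2 at chrX:152753885-152754134 (minus strand) and NR0B1 at chrX:30309391-30309640 (minus strand).
SRARP: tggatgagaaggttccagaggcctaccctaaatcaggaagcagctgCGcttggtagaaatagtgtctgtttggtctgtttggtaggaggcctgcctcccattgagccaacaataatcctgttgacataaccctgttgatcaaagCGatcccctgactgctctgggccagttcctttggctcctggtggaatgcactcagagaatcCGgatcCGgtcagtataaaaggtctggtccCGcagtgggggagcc
ABCB1: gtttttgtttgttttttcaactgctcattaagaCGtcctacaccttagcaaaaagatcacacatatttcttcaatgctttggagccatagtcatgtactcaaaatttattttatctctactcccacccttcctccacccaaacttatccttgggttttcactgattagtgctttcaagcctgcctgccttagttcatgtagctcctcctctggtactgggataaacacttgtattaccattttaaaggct
ALDH1A2: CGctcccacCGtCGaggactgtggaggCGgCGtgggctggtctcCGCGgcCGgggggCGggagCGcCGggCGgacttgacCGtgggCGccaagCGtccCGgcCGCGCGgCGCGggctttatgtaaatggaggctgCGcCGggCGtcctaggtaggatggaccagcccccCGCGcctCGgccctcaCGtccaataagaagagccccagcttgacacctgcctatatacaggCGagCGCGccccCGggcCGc
MAGEA2: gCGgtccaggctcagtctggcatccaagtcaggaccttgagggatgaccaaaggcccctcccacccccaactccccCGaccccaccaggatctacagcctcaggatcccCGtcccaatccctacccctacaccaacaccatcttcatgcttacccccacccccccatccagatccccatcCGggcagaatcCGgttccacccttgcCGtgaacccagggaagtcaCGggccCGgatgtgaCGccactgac
NR0B1: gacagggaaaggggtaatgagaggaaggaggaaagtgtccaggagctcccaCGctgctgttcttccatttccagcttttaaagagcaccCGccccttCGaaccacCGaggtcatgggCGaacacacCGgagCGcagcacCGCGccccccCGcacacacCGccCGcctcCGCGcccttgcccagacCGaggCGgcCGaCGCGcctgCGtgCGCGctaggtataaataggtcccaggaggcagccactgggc

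ALDH1A2 held 33 CG dinucleotides and NR0B1 22, against 9 for MAGEA2, 5 for SRARP and 1 for ABCB1. Windows with many and with few CG dinucleotides thus both occurred among these 5 genes. The counts do not show how widely a gene is used. Of the 93 protein-coding genes read in NCI-H1703R alone by this rule 69 had a RefSeq promoter, of the 176 read in NCI-H1581R 136 had one, and of all 15544 tested protein-coding genes 12249. The median ratio of observed to expected CG dinucleotides was 0.693 in the first set and 0.643 in the second, beside 0.8 over all promoters. The ratio reached 0.6 in 68.1% and 53.7% of the sets and in 75.3% of all promoters. The AP-1 motif TGANTCA, which reads as TGANTCA on the other strand too, was found in 5.8% and 6.62% beside 4.07% of all promoters of the same length. These shares describe the windows and were not tested.

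Protein-coding genes that were called and at least 4-fold apart were ranked by their difference in CPM. The first ones included genes of iron and stress handling in NCI-H1703R and of the cell surface and matrix in NCI-H1581R. FTH1, the heavy chain of the iron store ferritin, was read at 1297 and 983 CPM in NCI-H1581R and 6333 and 6834 CPM in NCI-H1703R (log2 difference 2.56, SE 0.33, adjusted p = 0.00280). SQSTM1 (p62), an autophagy receptor, was at 407 and 279.9 and 3071 and 3517 CPM (log2 difference 3.30, SE 0.31, adjusted p = 9.3e-04), and MYH9, a non-muscle myosin, at 267 and 382 and 1995 and 1758 CPM (log2 difference 2.57, SE 0.27, adjusted p = 0.00142). PADI2, which converts arginine to citrulline in proteins, had 3.37 and 4.83 and 1432 and 1513 CPM (log2 difference 8.52, SE 0.31, adjusted p = 4.3e-05). These genes were higher in both NCI-H1703R replicates, and FTH1, SQSTM1 and MYH9 overlap other genes, so part of their counts is uncertain. In the other direction, PEG10, a gene derived from a retrotransposon that overlaps SGCE, was read at 1832 and 2195 and 10.3 and 9.84 CPM (log2 difference -7.61, SE 0.28, adjusted p = 4.6e-05). GPC3, a heparan sulphate proteoglycan of the cell surface, was at 959.5 and 1273 and 1.11 and 0.9502 CPM (log2 difference -10.04, SE 0.33, adjusted p = 3.5e-05). HMOX1, COL3A1, COL1A2 and FN1, which the same rule named, are given with their groups.

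Among FGF receptors, NCI-H1703R carried more FGFR1 and FGFR3 RNA and NCI-H1581R more FGFR4. FGFR1, the receptor whose gene is amplified in part of lung cancers, was read at 27.02 and 35.1 CPM in the NCI-H1581R replicates and 556 and 575 CPM in the NCI-H1703R replicates (log2 difference 4.22, SE 0.21, adjusted p = 1.1e-04). FGFR3 was at 4.94 and 7.14 and 361 and 292 CPM (log2 difference 5.79, SE 0.28, adjusted p = 9.0e-05). FGFR4 was at 129 and 95.4 and 27.1 and 26.02 CPM (log2 difference -2.04, SE 0.20, adjusted p = 0.00110). None of these groups overlapped, which also held for 71.3% of all genes. FGFR2 had 5.02 and 0.965 and 10.2 and 4.83 CPM and was not called (adjusted p = 0.193), and the docking protein FRS2 was modestly lower in NCI-H1703R (40.9 and 33.2 and 20.6 and 23.3 CPM, log2 difference -0.72, SE 0.18, adjusted p = 0.0273). The FRS2 call was lost without the first or the second NCI-H1703R replicate (adjusted p = 0.212 and 0.117). Of 8 receptors and docking proteins 2 were called higher and 3 lower in NCI-H1703R, 62.5% against 52.5% over all genes.

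Most FGF ligands and carriers that were called were higher in NCI-H1581R. FGF10, a ligand of FGFR2 in lung development, had 312 and 288 CPM there and 0.185 and 0.158 CPM in NCI-H1703R (log2 difference -10.71, SE 0.26, adjusted p = 2.5e-05). FGF20 had 89.8 and 82.2 CPM against 1 and 2 counts (ratio 2168, counting interval 741 to 10515, adjusted p = 1.6e-05), and FGF11, which stays inside the cell, had 228 and 199 against 0.132 and 0.238 CPM (log2 difference -10.11, SE 0.29, adjusted p = 2.7e-05). FGFBP3, a carrier that releases FGFs from the matrix, had 207 and 261 against 0.8195 and 0.633 CPM (log2 difference -8.29, SE 0.27, adjusted p = 3.4e-05). FGF2, which binds several receptors, went the other way, at 2.02 and 1.07 CPM in NCI-H1581R and 50.04 and 57.5 CPM in NCI-H1703R (log2 difference 5.16, SE 0.31, adjusted p = 1.9e-04). Of 16 tested ligands and carriers 3 were called higher and 7 lower in NCI-H1703R, all of them at least 4-fold (62.5% called beside 52.5% over all genes), but 9 of the 16 stayed at or under 1 CPM in both lines.

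Most products of ERK signalling were lower in NCI-H1703R. Of 20 tested genes 13 were called lower and 5 higher, which is 90% beside 52.5% over all genes, and their median log2 difference was -1.56. Among the ETS factors of the PEA3 group, ETV4 had 344 and 299.7 CPM in NCI-H1581R and 1.74 and 2.82 CPM in NCI-H1703R (log2 difference -7.10, SE 0.29, adjusted p = 5.6e-05), ETV1 had 23.2 and 19.2 and 0.344 and 0.554 CPM (log2 difference -5.52, SE 0.32, adjusted p = 1.8e-04), and ETV5 had 137 and 140.2 and 26.3 and 44.00 CPM (log2 difference -1.95, SE 0.26, adjusted p = 0.00320). NCI-H1703R was low in both replicates for all 3.

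Of the feedback inhibitors given here, all but DUSP5 were lower in NCI-H1703R, by unlike amounts. SPRY1 was read at 29.4 and 26.8 CPM in NCI-H1581R and 0.344 and 0.132 CPM in NCI-H1703R (log2 difference -6.83, SE 0.35, adjusted p = 1.2e-04), SPRY2 at 19.2 and 12.7 and 0.555 and 0.211 CPM (log2 difference -5.33, SE 0.48, adjusted p = 7.6e-04), and SPRY4 at 32.8 and 33.02 and 10.5 and 13.5 CPM (log2 difference -1.42, SE 0.19, adjusted p = 0.00309). These Sprouty proteins act between receptor and RAF. SPRED2, a related inhibitor of RAS, was at 126 and 128 and 17.8 and 22.5 CPM (log2 difference -2.62, SE 0.18, adjusted p = 2.7e-04), and the ERK phosphatase DUSP6 at 88.2 and 76.1 and 1.19 and 1.93 CPM (log2 difference -5.68, SE 0.27, adjusted p = 8.8e-05). DUSP5, a nuclear ERK phosphatase, was the exception and was higher in NCI-H1703R (2.92 and 2.64 and 6.69 and 9.32 CPM, log2 difference 1.56, SE 0.29, adjusted p = 0.00932).

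Early genes of ERK were divided. FOSL1, a subunit of AP-1, had 2.05 and 1.804 CPM in NCI-H1581R and 85.7 and 102 CPM in NCI-H1703R (log2 difference 5.64, SE 0.21, adjusted p = 4.5e-05), and the zinc finger factor EGR1 had 1.57 and 1.09 and 29.6 and 40.8 CPM (log2 difference 4.76, SE 0.30, adjusted p = 2.3e-04). FOS, another AP-1 subunit, was lower in NCI-H1703R (11.3 and 12.2 and 2.91 and 4.197 CPM, log2 difference -1.69, SE 0.26, adjusted p = 0.00504), as was CCND1, the cyclin that starts G1 progression (187 and 228 and 13.2 and 16.9 CPM, log2 difference -3.75, SE 0.21, adjusted p = 1.6e-04). MYC, a growth factor target that the study followed, was at 144 and 135 and 148 and 174 CPM and was not called (adjusted p = 0.268). EIF4EBP1, an inhibitor of translation initiation that the study named with it, was higher in NCI-H1703R (113 and 91.4 and 206 and 247 CPM, log2 difference 1.18, SE 0.19, adjusted p = 0.00536).

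**Figure D2:**
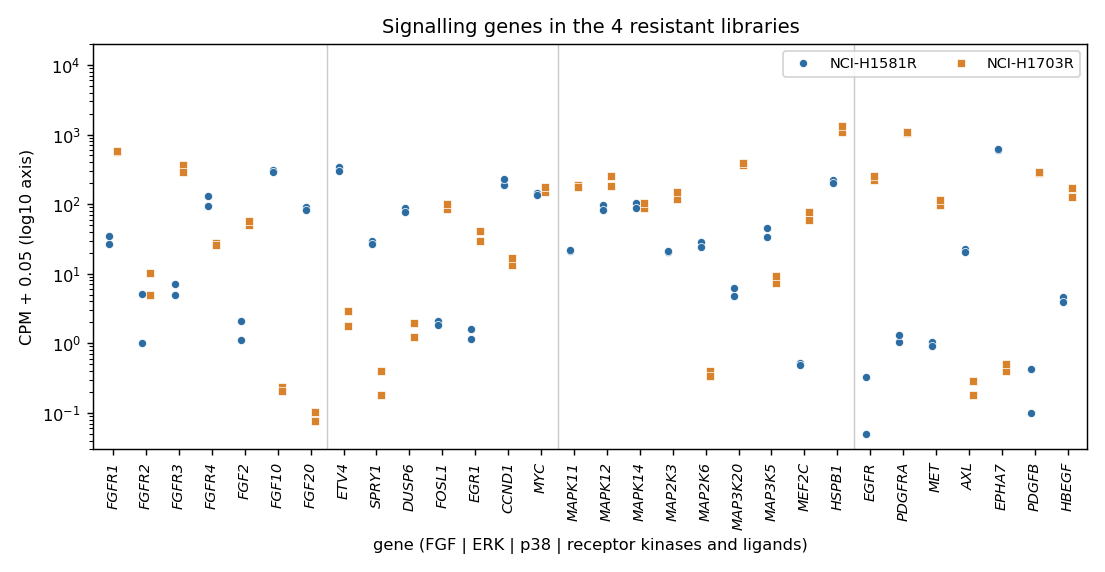
CPM in each of the 4 resistant libraries (points, log10 axis with 0.05 CPM added) for FGF, ERK, p38 and receptor kinase genes, orange for NCI-H1703R and blue for NCI-H1581R. The replicates of a line lie close together in most genes, but not for example in FGFR2, EGFR and PDGFB in NCI-H1581R. Most genes are separated between the lines, with FGFR2, MAPK14 and MYC as exceptions that overlap or nearly meet.

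Among the 4 p38 kinases, MAPK14 (p38 alpha), the main form in most cells, was read at 103 and 86.9 CPM in NCI-H1581R and 88.5 and 103 CPM in NCI-H1703R and was not called (log2 difference 0.05, SE 0.17, adjusted p = 0.853). MAPK11 (p38 beta) was higher in NCI-H1703R, with 21.1 and 22.05 and 191 and 177 CPM (log2 difference 3.13, SE 0.16, adjusted p = 1.1e-04), and so was MAPK12 (p38 gamma), with 97.6 and 81.2 and 249 and 180.0 CPM (log2 difference 1.30, SE 0.23, adjusted p = 0.00753). MAPK13 (p38 delta) had 0.213 and 0.6097 and 2.22 and 0.818 CPM (log2 difference 1.90, SE 0.76, adjusted p = 0.0980), a call that DESeq2 did not make (adjusted p = 0.119) and that was lost without either NCI-H1581R replicate or the first NCI-H1703R replicate (adjusted p = 0.321, 0.128 and 0.395).

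RNA of p38 activators differed in both directions. MAP2K3, which phosphorylates p38, was higher in NCI-H1703R (20.4 and 21.2 and 119 and 147 CPM, log2 difference 2.71, SE 0.17, adjusted p = 2.4e-04), while MAP2K6, with the same role, was read at 28.1 and 24.5 CPM in NCI-H1581R and 0.344 and 0.2903 CPM in NCI-H1703R (log2 difference -6.32, SE 0.30, adjusted p = 8.8e-05). Upstream, the stress-activated kinase MAP3K20 was at 4.73 and 6.17 and 367 and 385 CPM (log2 difference 6.14, SE 0.22, adjusted p = 4.2e-05) and MAP3K5 (ASK1), which senses oxidants, at 33.7 and 45.04 and 7.35 and 9.16 CPM (log2 difference -2.22, SE 0.23, adjusted p = 0.00125). Neither pair of groups overlapped, beside 71.3% of all genes without overlap.

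Among effectors of p38, MEF2C, a transcription factor, had 0.478 and 0.432 and 59.9 and 77.7 CPM (log2 difference 7.27, SE 0.28, adjusted p = 5.1e-05), the chromatin kinase RPS6KA4 had 44.5 and 34.4 and 227 and 249 CPM (log2 difference 2.63, SE 0.19, adjusted p = 3.9e-04), and the small heat shock protein HSPB1 had 221 and 204 and 1103 and 1305 CPM (log2 difference 2.54, SE 0.21, adjusted p = 5.3e-04). MAPKAPK2, the kinase between p38 and HSPB1, differed less (60.03 and 45.1 and 97.5 and 116 CPM, log2 difference 1.05, SE 0.20, adjusted p = 0.0104). In the whole p38 list of 27 genes, kinases and activators included, 14 were called higher and 5 lower in NCI-H1703R, 70.4% beside 52.5% over all genes, with a median log2 difference of 0.51.

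Receptor tyrosine kinases differed in both directions. PDGFRA, a receptor for platelet-derived growth factors, was read at 0.983 and 1.27 CPM in NCI-H1581R and 1054 and 1085 CPM in NCI-H1703R (log2 difference 9.92, SE 0.28, adjusted p = 2.7e-05), EGFR at 0 and 0.279 and 224 and 255 CPM (log2 difference 10.71, SE 0.51, adjusted p = 8.2e-05) and MET, the receptor of hepatocyte growth factor, at 0.983 and 0.864 and 97.3 and 114 CPM (log2 difference 6.87, SE 0.22, adjusted p = 3.4e-05). ROR1, a Wnt receptor with a kinase domain, had 2 and 1 counts in NCI-H1581R and 20.04 and 29.6 CPM in NCI-H1703R (ratio 637, counting interval 218 to 3091, adjusted p = 3.1e-05). All 4 were near 0 in NCI-H1581R.

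The ephrin receptor EPHA7 was read at 604 and 619.7 CPM in NCI-H1581R and 0.344 and 0.449 CPM in NCI-H1703R (log2 difference -10.55, SE 0.27, adjusted p = 2.5e-05), and the related EPHA3 at 108 and 100.3 and 0.106 and 0.132 CPM (log2 difference -9.70, SE 0.26, adjusted p = 2.5e-05). AXL, the receptor of GAS6, had 22.9 and 20.5 and 0.132 and 0.238 CPM (log2 difference -6.82, SE 0.34, adjusted p = 1.1e-04), and TEK, the angiopoietin receptor, had 10.4 and 14.5 CPM against 1 and 2 counts (ratio 315, counting interval 108 to 1532, adjusted p = 5.4e-05). ERBB2 was less than 2-fold apart (150.4 and 174 and 272 and 293 CPM, log2 difference 0.84, SE 0.16, adjusted p = 0.0106), a call lost without the second NCI-H1703R replicate (adjusted p = 0.144). Of 39 tested receptors 11 were called higher and 16 lower in NCI-H1703R, which is 69.2% called beside 52.5% over all genes, and 8 and 11 of these were at least 4-fold apart.

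Ligands of these receptors were more often higher in NCI-H1703R, with 13 of 24 tested genes called higher and 6 lower (79.2% called beside 52.5%). PDGFB was read at 0.372 and 0.0508 CPM in NCI-H1581R and 283 and 292 CPM in NCI-H1703R (log2 difference 10.45, SE 0.42, adjusted p = 5.8e-05), PDGFC at 83.2 and 88.8 and 526 and 578 CPM (log2 difference 2.72, SE 0.17, adjusted p = 2.2e-04) and the EGFR ligand HBEGF at 4.65 and 3.89 and 128 and 172 CPM (log2 difference 5.17, SE 0.24, adjusted p = 8.5e-05). Of the genes given here, PDGFRA and its ligands PDGFB and PDGFC, and EGFR and its ligand HBEGF, were thus higher in the same line. The list holds further ligands of both receptors, such as PDGFA, TGFA and AREG, which are not reported here. PDGFD, a ligand of the other PDGF receptor, was high in NCI-H1581R (123 and 101 and 0.264 and 0.185 CPM, log2 difference -8.91, SE 0.29, adjusted p = 3.6e-05), as were the KIT ligand KITLG (29.9 and 17.6 and 0 and 0.475 CPM, log2 difference -6.59, SE 0.71, adjusted p = 0.00149) and the ERBB3 ligand NRG1 (8.02 and 7.93 and 0.449 and 0.554 CPM, log2 difference -3.95, SE 0.33, adjusted p = 5.9e-04).

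TGF-beta and BMP genes divided between the lines. TGFBR2, the receptor chain that binds TGF-beta, had 0.558 and 0.584 CPM in NCI-H1581R and 207 and 234 CPM in NCI-H1703R (log2 difference 8.62, SE 0.23, adjusted p = 2.5e-05), and SMAD3, which carries its signal to the nucleus, had 7.73 and 8.56 and 274 and 274 CPM (log2 difference 5.11, SE 0.17, adjusted p = 3.8e-05). The TGF-beta target CCN2, a matrix protein, was high in the same line (1.49 and 1.65 and 197 and 393 CPM, log2 difference 7.58, SE 0.47, adjusted p = 2.1e-04). TGFB1 itself had 158 and 139.7 and 159 and 173 CPM and was not called (adjusted p = 0.347). BMP4, a morphogen, was read in NCI-H1581R (444 and 432 and 0.555 and 0.211 CPM, log2 difference -10.11, SE 0.35, adjusted p = 3.8e-05), while the BMP antagonist NOG was read in NCI-H1703R (0.399 and 0.356 and 18.7 and 23.1 CPM, log2 difference 5.82, SE 0.31, adjusted p = 1.4e-04). In this list 22 of 40 tested genes were called higher and 13 lower in NCI-H1703R (87.5% called beside 52.5%), with a median log2 difference of 0.57.

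Genes of the YAP and TEAD pathway, which links cell shape and contact to growth, were called higher in NCI-H1703R for 11 of 16 members and lower for 3, 87.5% called beside 52.5% over all genes. WWTR1 (TAZ), a coactivator of TEAD factors, had 15.2 and 12.8 and 521 and 588 CPM (log2 difference 5.35, SE 0.21, adjusted p = 5.4e-05), whereas its paralogue YAP1 had 309 and 323 and 164 and 192 CPM (log2 difference -0.79, SE 0.16, adjusted p = 0.0130), a call lost without the first NCI-H1703R replicate (adjusted p = 0.205). The target CRIM1 had 0.797 and 1.83 and 769 and 943 CPM (log2 difference 9.37, SE 0.42, adjusted p = 7.5e-05). AXL, also counted among targets, was lower in NCI-H1703R, as given above.

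The label of both lines is non-small cell lung cancer, and genes of lung or epithelial lineage were checked in both. At over 1 CPM in a line were 16 of 30 tested epithelial genes, 6 of 11 adenocarcinoma genes and 6 of 15 squamous genes. The epithelial adhesion gene CDH1 had 0.266 and 0.711 CPM in NCI-H1581R and 0.634 and 0.633 CPM in NCI-H1703R, and the keratins KRT8 and KRT18 stayed under 4 CPM in all 4 libraries. Of 30 tested epithelial genes 5 were called higher and 7 lower in NCI-H1703R, 40% beside 52.5% over all genes. CLDN1 and CLDN3, which code for tight junction claudins, differed in opposite directions, CLDN1 with 0.585 and 0.915 and 271 and 371 CPM (log2 difference 8.76, SE 0.33, adjusted p = 4.8e-05) and CLDN3 with 33.4 and 24.2 CPM and 0 and 1 counts (ratio 2173, counting interval 389.6 to 85873, adjusted p = 7.7e-05). The desmosomal protein DSP was read in both (290.4 and 413 and 80.8 and 73.9 CPM, log2 difference -2.15, SE 0.22, adjusted p = 0.00130).

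NKX2-1, which defines the lung adenocarcinoma lineage, was read at 40.1 and 59.5 CPM in NCI-H1581R and 0.159 and 0.2903 CPM in NCI-H1703R (log2 difference -7.74, SE 0.41, adjusted p = 1.3e-04), and GATA6 at 31.5 and 28.4 and 0.714 and 0.686 CPM (log2 difference -5.38, SE 0.25, adjusted p = 8.0e-05). TP63, the master factor of squamous cells, had 27.8 and 31.2 and 0.238 and 0.158 CPM (log2 difference -7.16, SE 0.31, adjusted p = 7.1e-05) and SOX2, amplified in squamous cancers, 6.62 and 6.66 and 0.555 and 0.185 CPM (log2 difference -4.12, SE 0.45, adjusted p = 0.00160). TP63 and SOX2 were thus near 0 in NCI-H1703R, and the squamous keratin KRT5 did not exceed 1.04 CPM in any resistant library. The squamous list as a whole did not follow them. Of its 15 tested genes 4 were called higher and 2 lower in NCI-H1703R, 40% beside 52.5% over all genes. Of 11 tested adenocarcinoma genes 2 were called higher and 4 lower, 54.5% beside the same 52.5%. PITX1 and TFAP2A, factors placed in the squamous list, were read in NCI-H1703R, TFAP2A at 0.771 and 1.24 and 63.6 and 60.5 CPM (log2 difference 5.97, SE 0.26, adjusted p = 7.0e-05) and PITX1 at 1.91 and 2.06 and 33.8 and 38.7 CPM (log2 difference 4.22, SE 0.21, adjusted p = 1.0e-04). LAMP3 was the adenocarcinoma list's gene with the largest difference in favour of NCI-H1703R (1.51 and 2.74 and 16.6 and 15.2 CPM, log2 difference 2.93, SE 0.32, adjusted p = 0.00148).

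Neural and neuroendocrine genes were more often higher in NCI-H1581R, with 14 of 24 called higher there and 4 called higher in NCI-H1703R (75% called beside 52.5% over all genes). NCAM1, a neural adhesion protein, had 54.6 and 70.6 CPM in NCI-H1581R and 0.0264 and 0.238 CPM in NCI-H1703R (log2 difference -8.82, SE 0.45, adjusted p = 1.0e-04), the neuronal enolase ENO2 114 and 118 and 0.899 and 0.317 CPM (log2 difference -7.53, SE 0.36, adjusted p = 9.5e-05) and the synaptic vesicle protein SYP 102 and 82.7 and 18.3 and 16.5 CPM (log2 difference -2.37, SE 0.18, adjusted p = 4.7e-04). MAP2, which binds microtubules in dendrites, ran in the other direction (11.3 and 16.8 and 206 and 224 CPM, log2 difference 3.97, SE 0.24, adjusted p = 2.0e-04).

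HOX genes record position along the body axis. Of 37 tested HOX genes 12 were called higher and 16 lower in NCI-H1703R (75.7% beside 52.5% over all genes), 11 in each direction by at least 4-fold. HOXC10 had 0.345 and 0.229 CPM in NCI-H1581R and 75.8 and 81.5 CPM in NCI-H1703R (log2 difference 8.12, SE 0.26, adjusted p = 3.1e-05), and HOXD9 had 0 counts against 7.32 and 7.76 CPM (at least 96.8-fold apart, adjusted p = 9.5e-04). HOXA7 (26.04 and 29.7 CPM against 1 and 2 counts, ratio 705, counting interval 241 to 3422, adjusted p = 2.1e-05) and HOXB2 (31.4 and 31.3 and 0.264 and 0.132 CPM, log2 difference -7.25, SE 0.32, adjusted p = 7.2e-05) were read in NCI-H1581R.

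The subunits of the SWI/SNF chromatin remodeller were called in 42.3% of 26 genes, beside 52.5% over all genes. SMARCA4 and SMARCA2, the alternative motor subunits of the complex, were low in all resistant libraries, SMARCA4 at 4.86 and 7.900 and 5.08 and 1.74 CPM (adjusted p = 0.251) and SMARCA2 at 0.106 and 0.0508 and 0.397 and 0.317 CPM (log2 difference 2.18, SE 0.72, adjusted p = 0.0547). DESeq2 did not call SMARCA2 (adjusted p = 0.287), nor did edgeR without any single resistant library (adjusted p between 0.107 and 0.203). DPF1, a subunit of the neural form of the complex, was higher in NCI-H1581R (37.7 and 32.4 and 3.15 and 2.798 CPM, log2 difference -3.52, SE 0.21, adjusted p = 1.9e-04), and SMARCC2, a core subunit, was higher in NCI-H1703R (52.9 and 103 and 204 and 171 CPM, log2 difference 1.30, SE 0.34, adjusted p = 0.0286), a call lost without the first NCI-H1703R replicate (adjusted p = 0.103).

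Mesenchymal genes did not all point one way. VIM, the intermediate filament of mesenchymal cells, was abundant in both lines (4738 and 3931 and 2634 and 3069.5 CPM) and not called by edgeR (adjusted p = 0.182), but called by DESeq2 (adjusted p = 0.0116). FN1 (fibronectin) had 745 and 919 CPM in NCI-H1581R and 5.499 and 5.75 CPM in NCI-H1703R (log2 difference -7.17, SE 0.25, adjusted p = 3.8e-05), and the homeobox factor PRRX1 had 289 and 245 and 0.211 and 0.185 CPM (log2 difference -10.34, SE 0.28, adjusted p = 2.6e-05). THY1, a surface protein of stromal cells, was high in NCI-H1703R (2.42 and 2.01 and 391 and 471 CPM, log2 difference 7.64, SE 0.24, adjusted p = 3.1e-05). Of 20 tested members 4 were called higher and 8 lower in NCI-H1703R, 60% beside 52.5% over all genes.

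Of 33 tested collagen genes 9 were called higher and 10 lower in NCI-H1703R, 57.6% beside 52.5% over all genes. The fibrillar chains COL3A1 (2095 and 2262 and 2.06 and 2.61 CPM, log2 difference -9.83, SE 0.32, adjusted p = 3.4e-05) and COL1A2 (1008 and 976 and 1.11 and 1.45 CPM, log2 difference -9.56, SE 0.27, adjusted p = 2.7e-05) were read in NCI-H1581R. The basement membrane chains COL4A1 (0.0531 and 0.178 and 65.2 and 51.4 CPM, log2 difference 8.96, SE 0.39, adjusted p = 5.8e-05) and COL4A2 (0 and 0.254 and 84.4 and 68.5 CPM, log2 difference 9.20, SE 0.52, adjusted p = 1.5e-04) were read in NCI-H1703R. Both pairs were separated without overlap, as were 71.3% of all genes, while COL1A1, a fibrillar chain too, was not called (adjusted p = 0.658).

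Of 30 tested integrin and laminin genes 13 were called higher and 8 lower in NCI-H1703R (70%), and of 16 matrix proteases and inhibitors 5 and 7 (75%), beside 52.5% over all genes. ITGA3, a laminin-binding integrin chain, had 15.8 and 19.3 CPM in NCI-H1581R and 335 and 340.1 CPM in NCI-H1703R (log2 difference 4.30, SE 0.19, adjusted p = 7.0e-05), the laminin chain LAMB1 1.28 and 1.397 and 40.4 and 35.97 CPM (log2 difference 4.87, SE 0.22, adjusted p = 7.9e-05) and LAMA2 0.239 and 0.0508 and 8.38 and 8.47 CPM (log2 difference 5.88, SE 0.48, adjusted p = 5.3e-04). LAMA1 was higher in NCI-H1581R (11.4 and 9.83 and 0.899 and 0.581 CPM, log2 difference -3.80, SE 0.33, adjusted p = 6.9e-04). The protease inhibitor TIMP1 (0.319 and 0.0508 and 84.4 and 103 CPM, log2 difference 9.02, SE 0.42, adjusted p = 8.2e-05) and the membrane protease MMP14 (1.06 and 3.58 and 141 and 139 CPM, log2 difference 5.94, SE 0.49, adjusted p = 5.7e-04) were read in NCI-H1703R, and the aggrecanases ADAMTS1 (184 and 233 CPM against 4 and 3 counts, log2 difference -11.05, SE 0.32, adjusted p = 2.5e-05) and ADAMTS5 (22.9 and 20.6 CPM against 0 counts, at least 274-fold apart, adjusted p = 3.1e-04) in NCI-H1581R.

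Fibroblast markers, among them COL1A2 and COL3A1, summed to 3130 and 3278 CPM in NCI-H1581R and to 36.8 and 32.2 CPM in NCI-H1703R, but DCN and LUM, which define fibroblasts, stayed under 1 CPM in all 4 libraries, and FAP, an activated fibroblast protease, was read in NCI-H1703R (0 and 0.0508 and 6.900 and 5.701 CPM, ratio 243, counting interval 66.8 to 2009, adjusted p = 1.7e-04). Of 7 fibroblast markers 1 was called higher and 3 lower in NCI-H1703R, 57.1% beside 52.5% over all genes. Leukocyte markers summed to 20.0 and 15.6 CPM in NCI-H1581R and 44.5 and 55.6 CPM in NCI-H1703R. That sum was mostly CD68, a lysosomal protein (18.7 and 14.7 and 43.1 and 55.00 CPM, log2 difference 1.59, SE 0.21, adjusted p = 0.00303), with PTPRC and CD14 under 0.5 CPM. Endothelial markers summed to 62.7 and 45.1 against 61.4 and 72.1 CPM, nearly all of it EGFL7 (adjusted p = 0.253), with PECAM1 and VWF under 0.25 CPM. In RNA of whole cultures, fewer cells of a kind and less RNA per cell cannot be told apart.

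Genes of DNA replication and mitosis differed little between the lines. Of 24 tested members 4 were called higher and 5 lower in NCI-H1703R (37.5% beside 52.5%), all of them less than 4-fold apart. The largest called differences were those of MCM3, a subunit of the replicative helicase (189.5 and 196 and 326 and 349.7 CPM, log2 difference 0.85, SE 0.15, adjusted p = 0.00839), and of BIRC5 (survivin; 354 and 227 and 122 and 145 CPM, log2 difference -1.09, SE 0.26, adjusted p = 0.0218). Without the first NCI-H1703R replicate neither was called (adjusted p = 0.1001 and 0.147), and without the second MCM3 was not (adjusted p = 0.137). The proliferation marker MKI67 had 60.00 and 136 and 253 and 140.5 CPM, with adjusted p = 0.126 by edgeR and 0.0311 by DESeq2.

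In cell cycle control, CDK6, the kinase partner of D cyclins, was lower in NCI-H1703R (221 and 211 and 42.5 and 55.5 CPM, log2 difference -2.11, SE 0.18, adjusted p = 6.9e-04), as was CCND1, given above, while CDK4 was less than 2-fold apart (894 and 528 and 341 and 383 CPM, log2 difference -0.94, SE 0.29, adjusted p = 0.0509). CDK4 was not called with the GC content and length of transcripts as offsets (adjusted p = 0.246), nor without the first or the second NCI-H1703R replicate (adjusted p = 0.266 and 0.159). Neither the inhibitor CDKN2A (adjusted p = 0.304) nor RB1 (adjusted p = 0.1101) was called. Of 23 genes 10 were called higher and 7 lower (73.9% beside 52.5% over all genes). Among apoptosis regulators, 6 of 15 were called higher and 1 lower in NCI-H1703R (46.7% beside 52.5%), with PMAIP1 (NOXA), which promotes apoptosis, at 4.38 and 2.03 and 10.4 and 11.8 CPM (log2 difference 1.83, SE 0.38, adjusted p = 0.0141) and BMF at 8.24 and 8.05 and 2.696 and 3.299 CPM (log2 difference -1.41, SE 0.25, adjusted p = 0.00809). MCL1, a survival protein, was not called (adjusted p = 0.135).

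Most drug efflux genes that were called were higher in NCI-H1581R. Beside ABCB1, the half-transporter ABCG2 had 596 and 439.8 CPM there and 0.132 and 0.211 CPM in NCI-H1703R (log2 difference -11.50, SE 0.38, adjusted p = 3.4e-05), and the lipid transporter ABCA3 had 71.5 and 69.7 and 27.97 and 24.9 CPM (log2 difference -1.38, SE 0.15, adjusted p = 0.00165). ABCC1 (MRP1) was slightly higher in NCI-H1703R (49.2 and 63.2 and 74.4 and 74.8 CPM, log2 difference 0.45, SE 0.17, adjusted p = 0.0925), a call that DESeq2 did not make (adjusted p = 0.110) and that was lost without the first NCI-H1581R replicate or either NCI-H1703R replicate (adjusted p = 0.212, 0.359 and 0.407). Of 10 tested transporters 6 were called lower and 2 higher in NCI-H1703R (80% called beside 52.5%), of which DESeq2 called neither of the higher ones.

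Cholesterol synthesis genes were lower in NCI-H1703R almost throughout. Of 14 members 13 were called lower (92.9% beside 52.5%), with a median log2 difference of -1.59. INSIG1, a sterol sensor, had 228 and 184 CPM in NCI-H1581R and 25.2 and 25.05 CPM in NCI-H1703R (log2 difference -3.00, SE 0.18, adjusted p = 2.0e-04), and the squalene epoxidase SQLE had 244 and 225 and 52.00 and 58.5 CPM (log2 difference -2.05, SE 0.16, adjusted p = 4.3e-04). Both were separated without overlap, as were 71.3% of all genes. Serum was 10% for both lines, but the medium differed, and its part in the result was not tested.

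Targets of NRF2, the factor that answers oxidants, were called higher in NCI-H1703R for 8 of 21 genes and lower for 3, so that 52.4% were called beside 52.5% over all genes. HMOX1, which degrades haem, had 83.7 and 72.4 and 1807 and 2140.3 CPM (log2 difference 4.69, SE 0.25, adjusted p = 1.4e-04), OSGIN1 2.23 and 2.69 and 175 and 175 CPM (log2 difference 6.18, SE 0.19, adjusted p = 3.1e-05) and the thioredoxin reductase TXNRD1 386 and 318 and 1236 and 1425 CPM (log2 difference 1.95, SE 0.22, adjusted p = 0.00171). The malic enzyme ME1 was the exception by size (40.8 and 33.1 CPM against 2 and 3 counts, ratio 558, counting interval 239 to 1720.3, adjusted p = 3.0e-05).

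In metabolism, the median log2 difference of 21 serine synthesis and ATF4 target genes was 0.03, with 7 called in each direction (66.7% beside 52.5% over all genes). VLDLR (0.8503 and 0.762 and 7.61 and 7.71 CPM, log2 difference 3.28, SE 0.30, adjusted p = 8.2e-04) and ALDH1L2, a mitochondrial folate enzyme (5.95 and 11.7 and 1.19 and 1.24 CPM, log2 difference -2.82, SE 0.45, adjusted p = 0.00576), were the called members furthest apart. Of 22 glycolysis and hypoxia genes 6 were called higher and 7 lower (59.1%), with HK2, the inducible hexokinase, lower in NCI-H1703R (30.1 and 33.4 and 3.91 and 4.59 CPM, log2 difference -2.86, SE 0.20, adjusted p = 3.1e-04) and NDRG1, a hypoxia-induced gene, higher (5.42 and 6.33 and 18.8 and 20.6 CPM, log2 difference 1.78, SE 0.20, adjusted p = 0.00167). ENO2, the furthest apart in this list, was given above. Of 5 tested metallothioneins 2 were called in each direction (80%), MT1X at 1.43 and 1.52 and 6.45 and 7.68 CPM (log2 difference 2.29, SE 0.28, adjusted p = 0.00243), and members of that family share sequence.

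Of 19 tested genes of antigen presentation 10 were called higher and 1 lower in NCI-H1703R, each by at least 4-fold, and 8 were not called (57.9% called beside 52.5% over all genes). The class I heavy chains HLA-B (1.06 and 1.35 and 83.7 and 92.4 CPM, log2 difference 6.22, SE 0.21, adjusted p = 3.8e-05) and HLA-C (3.22 and 1.63 and 336 and 401 CPM, log2 difference 7.29, SE 0.36, adjusted p = 1.1e-04) were near 0 in NCI-H1581R. Their reads can be shared between alleles and paralogues, but B2M, the light chain, which has no such copies, was higher too (36.03 and 21.3 and 217 and 252 CPM, log2 difference 3.07, SE 0.29, adjusted p = 9.5e-04). TAPBP, which loads peptide onto class I, was the exception (34.1 and 45.4 and 0.582 and 1.74 CPM, log2 difference -5.06, SE 0.44, adjusted p = 6.6e-04).

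The list of interferon-stimulated genes also holds receptors and kinases of the interferon pathway. In it 17 of 33 tested genes were called higher and 6 lower in NCI-H1703R, 69.7% beside 52.5% over all genes. XAF1 had 0.133 and 0.152 and 8.301 and 5.04 CPM (log2 difference 5.55, SE 0.57, adjusted p = 0.00121), the factor IRF1 4.996 and 5.97 and 66.7 and 83.6 CPM (log2 difference 3.81, SE 0.21, adjusted p = 1.5e-04) and the kinase JAK1, which transmits interferon signals, 53.04 and 57.9 and 415 and 509 CPM (log2 difference 3.09, SE 0.19, adjusted p = 2.0e-04). STAT2, a factor that carries the signal of interferon receptors, was lower (44.6 and 69.1 and 17.7 and 15.7 CPM, log2 difference -1.73, SE 0.25, adjusted p = 0.00428). Of 12 tested cytokines 7 were called higher and 1 lower (66.7% called), the latter not by DESeq2. CXCL1, a neutrophil attractant, had 0 counts in NCI-H1581R and 10.9 and 15.02 CPM in NCI-H1703R (at least 166-fold apart, adjusted p = 8.1e-04), the cytokine LIF had 0.292 and 0.457 and 148 and 130.1 CPM (log2 difference 8.56, SE 0.27, adjusted p = 3.1e-05), and CCL2 was given above.

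Of 9 tested cancer-testis genes 4 were called higher and 2 lower in NCI-H1703R (66.7% beside 52.5% over all genes). MAGEA1 had 4 and 2 counts in NCI-H1581R and 179 and 226 CPM in NCI-H1703R (log2 difference 11.32, SE 0.33, adjusted p = 2.5e-05). MAGEA4, of the same family, was abundant in both and higher in NCI-H1581R (1260.4 and 908 and 419 and 501 CPM, log2 difference -1.20, SE 0.25, adjusted p = 0.0136), a call lost without the first NCI-H1703R replicate (adjusted p = 0.179). The plot of gene lists sets these shares beside those of all genes.

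**Figure D3:**
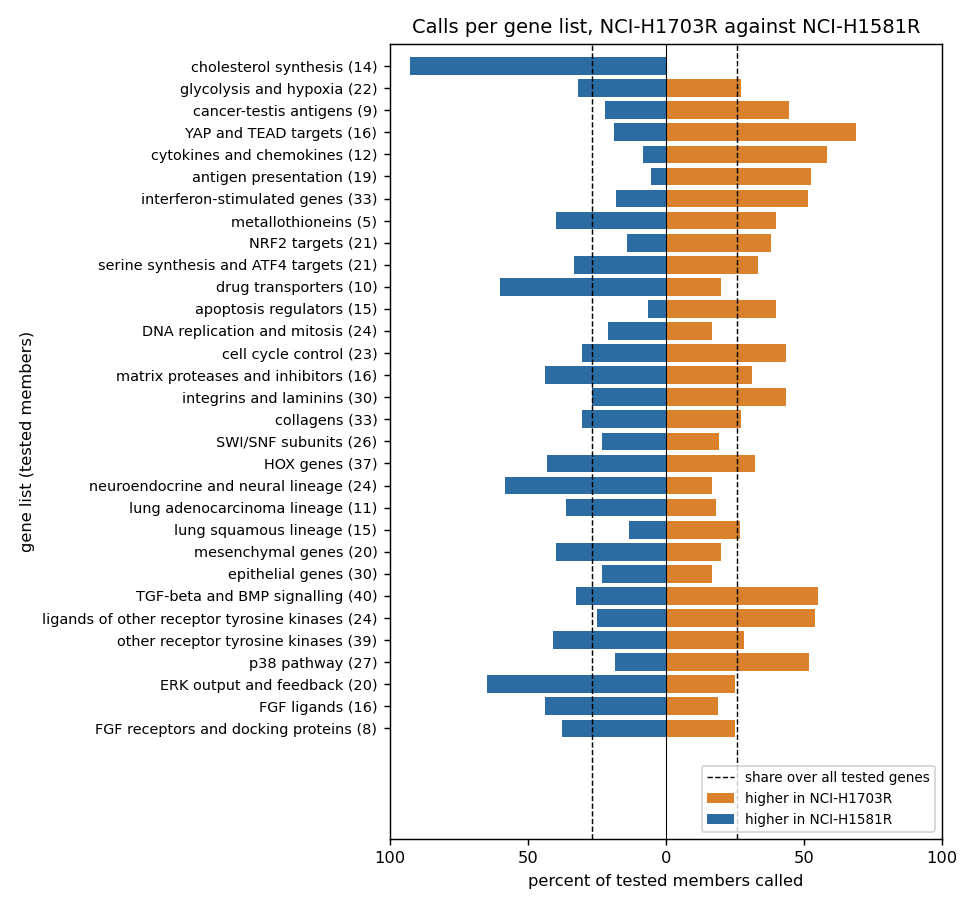
Share of the tested members of each gene list that was called higher in NCI-H1703R (bars to the right, percent) or higher in NCI-H1581R (bars to the left), with dashed lines at the shares over all 18203 genes (25.9% and 26.7%). Cholesterol synthesis reaches furthest to the left (13 of 14) and the YAP list furthest to the right (11 of 16), and lists of few genes give coarse shares.

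To see how far these differences were already those of the parents, the sensitive lines were compared by the same test on their own 4 libraries, which the comparison above did not use. There 11444 genes (62.9%) were called, with NCI-H1703 above NCI-H1581 in 32.5% of all genes and below it in 30.4%, and 4194 (23.0%) were called and at least 4-fold apart (11.8% and 11.2%). The log2 differences of the resistant and of the sensitive lines were correlated across the 18203 genes (Pearson r = 0.727), where genes are not independent replicates. Of the genes at least 4-fold apart in each comparison, 2816 were shared, which was 67.1% of the resistant and 67.1% of the sensitive calls, and 2741 of these had the same direction.

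The interaction of line and variant, fitted on all 8 libraries, was called for 2803 genes (15.4%), 1262 (6.93%) with a higher and 1541 (8.47%) with a lower difference in the resistant than in the sensitive lines. This test shares the resistant libraries with the comparison above. An interaction is the resistant minus the sensitive log2 difference, and its size is left out for genes with at most 3 counts in both replicates of a variant, where it depends on the prior count. Among the genes it called, 678 had a difference of the same sign that was wider in the resistant lines, 461 one that was narrower, 379 one of opposite sign with both comparisons called, 203 were 4-fold apart in the sensitive lines alone by the calls, and 183 in the resistant lines alone. Without the first or the second NCI-H1703 replicate 1634 and 1571 genes were called, and without the first or the second NCI-H1703R replicate 1739 and 1685.

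The order of the lines was reversed in genes such as PRDM1, a repressor of transcription in differentiating cells. In the sensitive lines it had 0.0297 and 0 CPM in NCI-H1581 and 5.51 and 4.75 CPM in NCI-H1703, and in the resistant lines 17.2 and 18.98 and 0.106 and 0.211 CPM (interaction adjusted p = 9.6e-06). MYO10, a myosin of filopodia, had 0.831 and 0.275 and 16.7 and 16.2 CPM before and 252 and 386 and 5.53 and 4.59 CPM after selection (interaction -10.92, adjusted p = 9.4e-06). The natriuretic peptide receptor NPR3 followed, with 0 and 0 and 0.622 and 0.837 CPM and then 8.61 and 7.82 and 0.159 and 0.211 CPM (interaction adjusted p = 8.5e-04). NCI-H1703R was lower than NCI-H1581R in all 3. The cell cycle regulator RGCC, the cation transporter SLC22A3 and the vasoconstrictor peptide EDN1 also reversed, at levels of at most 12.6 CPM in any resistant library, and the call of SLC22A3 was lost without the first or the second NCI-H1703 replicate (adjusted p = 0.1003 and 0.182).

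FN1 was reversed as well. It had 0.623 and 1.42 CPM in NCI-H1581 and 9.03 and 10.2 CPM in NCI-H1703, against 745 and 919 and 5.499 and 5.75 CPM in the resistant lines (interaction -10.39, adjusted p = 6.3e-06). Other members of the lists with opposite signs were MAP3K5 (0.208 and 0.774 and 19.4 and 20.99 CPM in the sensitive lines, interaction -7.54, adjusted p = 3.9e-05), NRG1 (0.148 and 0 and 5.001 and 7.39 CPM, interaction -10.42, adjusted p = 4.2e-05), SOX2 (1.72 and 0.499 and 38.03 and 37.2 CPM, interaction -9.29, adjusted p = 5.5e-05) and EGR1 (47.7 and 58.7 and 9.19 and 10.02 CPM, interaction 7.20, adjusted p = 1.5e-05). In EGR1 the resistant NCI-H1703R was the higher line, and in the others it was the lower one.

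Differences that the sensitive lines did not show included those of ALDH1A2, SRARP, RUNDC3B, MAML3, TMEM229A and LBH, all read in NCI-H1581R. The interaction calls of ALDH1A2, MAML3 and TMEM229A were lost without the first NCI-H1703 replicate (adjusted p = 1, 0.288 and 0.173). SRARP had 0.386 and 0.125 CPM in NCI-H1581 and 0.108 and 0.1196 CPM in NCI-H1703 before selection (interaction adjusted p = 9.1e-04). LBH, a transcriptional cofactor, had 0.208 and 0.574 and 0.162 and 0.419 CPM before and 216 and 191 and 0 and 0.158 CPM after selection (interaction -10.76, adjusted p = 0.00167). RUNDC3B, a neighbour of ABCB1, had 0.0297 and 0 and 0.0811 and 0.179 CPM before and 69.1 and 50.1 CPM against 2 and 1 counts after selection (interaction adjusted p = 0.00246). For ABCB1 itself the interaction was not called (interaction adjusted p = 0.121), with 0.0297 and 0.0999 and 0.0270 and 0 CPM in the sensitive lines. ABCG2 was called (0.534 and 0.275 and 0.135 and 0.209 CPM in the sensitive lines, interaction -10.34, adjusted p = 0.00310). The interaction was above 0 for TIMP1, which had been lower in NCI-H1703 before selection (197 and 171 and 72.7 and 71.2 CPM in the sensitive lines, interaction 10.34, adjusted p = 6.3e-06), and for HOXC10, whose difference had the same direction before selection and was smaller (46.00 and 44.1 and 76.2 and 77.6 CPM, interaction 7.32, adjusted p = 6.3e-06).

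Differences of the sensitive lines that the resistant lines did not show were led by GCG, which codes for glucagon. It had 969 and 742 CPM in NCI-H1581 and 0.378 and 0.508 CPM in NCI-H1703, against 0.505 and 0.406 and 0.344 and 0.528 CPM in the resistant lines (interaction 10.85, adjusted p = 2.0e-04). PTN, a heparin-binding growth factor (64.4 and 74.3 and 0 and 0.0299 CPM in the sensitive lines, interaction adjusted p = 0.0112), and the lipid kinase DGKI (69.9 and 74.4 and 0.0541 and 0.0299 CPM, interaction adjusted p = 8.8e-04) were likewise high in NCI-H1581 and under 0.25 CPM in all resistant libraries. CLSTN2, a synaptic protein, had been high in NCI-H1703 (0 and 0 and 12.1 and 12.5 CPM, interaction adjusted p = 0.0159). CNTNAP4 and BIRC7 completed the rule, both read in NCI-H1581. Calls of the interaction were lost without 1 library for PTN (first or second NCI-H1703R replicate, adjusted p = 0.127 and 0.124), CLSTN2 (first NCI-H1581R replicate, 0.124), BIRC7 (first NCI-H1703R replicate, 0.224) and CNTNAP4 (either NCI-H1703 replicate or the first NCI-H1703R replicate, 0.182, 0.178 and 1). A difference that was not called in the resistant lines does not show equal levels, and most of these genes were near 0 in both. Of the genes named in these comparisons with the parents, MYO10, ALDH1A2, SRARP, MAML3, TMEM229A, CNTNAP4 and DGKI overlap other genes.

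**Figure D4:**
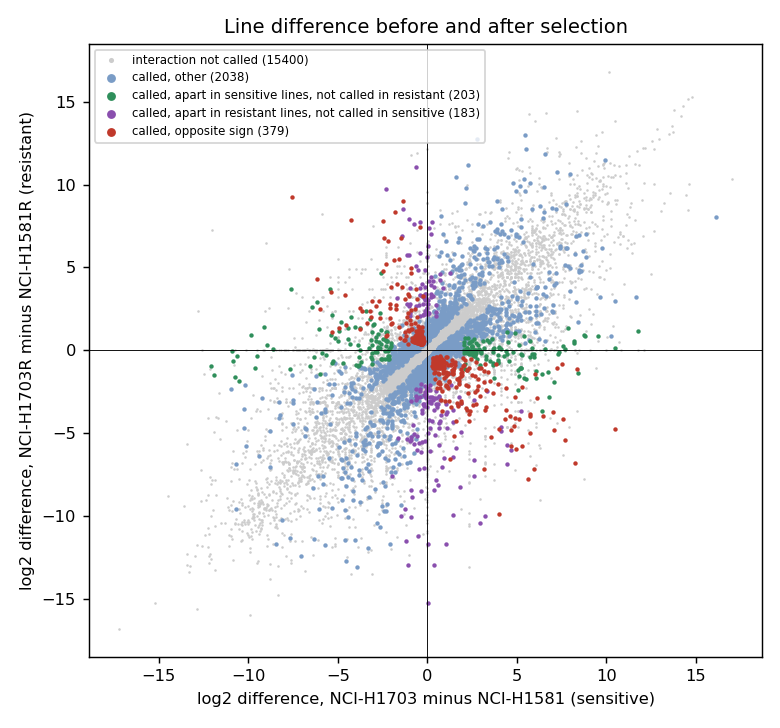
Log2 difference between the lines in sensitive cells (x axis, NCI-H1703 minus NCI-H1581) and in resistant cells (y axis, NCI-H1703R minus NCI-H1581R) for 18203 genes, r = 0.727. Genes called in the interaction test are coloured by class, and those of opposite sign (379, red) lie in the upper left and lower right corners of the plot.

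In the signalling groups the interaction was called for FGFR1 and FGFR3, both wider apart in the resistant lines. FGFR1 had 207 and 171 CPM in NCI-H1581 and 839 and 804 CPM in NCI-H1703 (interaction 2.06, adjusted p = 9.2e-04), and FGFR3 had 3.09 and 3.27 and 67.3 and 55.4 CPM (interaction 1.49, adjusted p = 0.0218). In the ERK list 12 of 20 tested genes were called, among them SPRY1 (34.5 and 34.01 and 10.1 and 12.4 CPM in the sensitive lines, interaction -5.26, adjusted p = 1.2e-04), ETV4 (291 and 247 and 23.98 and 25.2 CPM, interaction -3.68, adjusted p = 1.3e-04) and CCND1 (144 and 159.8 and 91.99 and 88.4 CPM, interaction -3.03, adjusted p = 1.3e-04). In the TGF-beta list 19 of 40 and in the p38 list 7 of 27 were called. In the lists of replication and of SWI/SNF subunits 1 each was called, beside 15.4% over all genes.

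The difference between the lines also varied with chromosome. Over genes with a mean of at least 10 counts, the median log2 difference was -0.71 on chromosome 14, -0.69 on chromosome 20 and -0.40 on chromosome 21, and it was 0.64 on chromosomes 13 and 18, 0.60 on chromosome 5 and 0.42 on chromosome 22. In the sensitive lines the medians of the same chromosomes were -0.53, -0.68, -0.33, 0.47, 0.94, 0.75 and 0.51. On chromosome 14, 263 of 462 genes (56.9%) were called higher in NCI-H1581R and 53 (11.5%) higher in NCI-H1703R, and on chromosome 13, 39 of 233 (16.7%) and 124 (53.2%). Over all 18203 tested genes, which include those with lower counts, these shares were 26.7% and 25.9%. Gene copy number was not analysed here, and its part in the result was not tested.

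**Figure D5:**
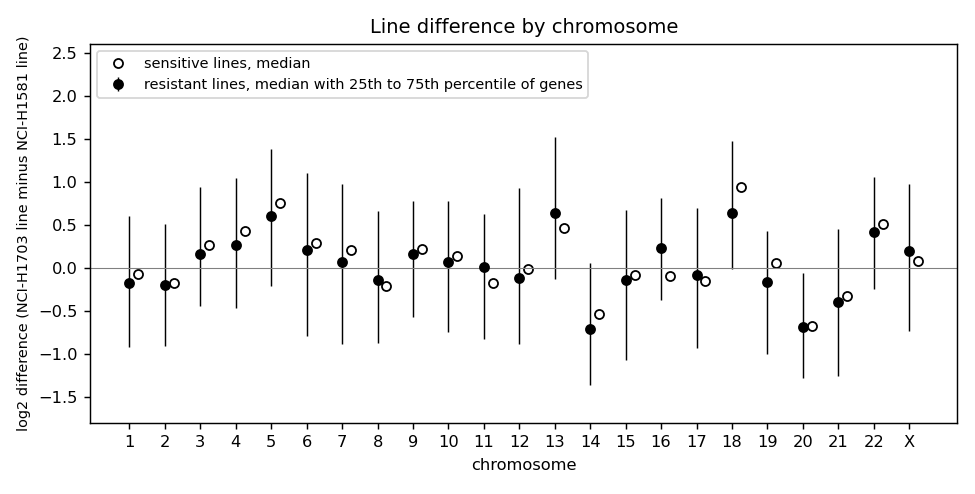
Median log2 difference between the lines per chromosome (y axis) for autosomes and X (x axis), filled points for the resistant lines with bars from the 25th to the 75th percentile of genes, open points for the sensitive lines. Chromosomes 14 and 20 lie lowest and 13, 18 and 5 highest among the resistant medians, and most bars overlap each other.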

How the data were processed

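RNA of 8 cultures was sequenced, and the resistant pair is described here. The authors deposited 1 table of estimated counts per Ensembl gene for all 8 libraries, made by trimming with cutadapt and quantification with Salmon against GRCh38 (hg38), summed to genes with tximport and rounded to whole numbers. The versions of cutadapt and Salmon and the strandedness of the libraries are not given in the sources used here. Without a known strand, genes that overlap cannot be told apart, and reads of near-identical genes are shared out by the estimate. Groups came from the sample titles.

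Genes whose counts summed to 10 or more across the 8 libraries were kept (18203 of 37441 in the table, where 15136 had no count in any library), and 17177 of those kept had a symbol in GENCODE 44. Counts were scaled by TMM within the libraries of each fit and tested with edgeR 4.0.16 in R 4.3.3 (quasi-likelihood F test, two-sided, Benjamini-Hochberg adjusted p under 0.1). The resistant comparison used the 4 resistant libraries, the sensitive one the 4 sensitive libraries, and the interaction all 8. With 2 replicates per variant, which the series calls biological and the protocol describes as a repeated harvest, p-values measure the spread between these samples. Promoters are those of RefSeq (GRCh38.p14). The fit was tested on simulated data.

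Alternatives were DESeq2 1.42.0, size factors of DESeq2, other filters and thresholds, a single fit of all 8 libraries, the replicate number as a block, offsets for GC content and length, and each library left out. Equal replicate numbers were checked as pairs: the deviations of the 2 lines were correlated at r = -0.330 over 11061 genes, so they were not used as pairs.

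The gene lists and the comparison itself were chosen with earlier results of these data known. The text names genes by rule. By rule, it names the 10 with the highest CPM in each line among those with at most 3 counts per replicate of the other. Among genes called and at least 4-fold apart, it names the 6 with the largest difference in CPM in each direction. Up to 6 genes of each interaction class follow. All of these were protein coding, had a symbol and were not Y-linked. The leading called member of each list in each direction is named too, as are genes that the study's text names for RNA. Other list members were chosen after their values were seen, and some genes that the rule names are not reported here.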

Additional observations from a re-analysis of the deposited data

Results flagged for a closer look

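Of 18203 genes, 2803 had a difference between the lines that was not the same in resistant and in sensitive cells, by edgeR's test of the interaction of line and variant. The genes below were singled out by that test and are given with its Benjamini-Hochberg adjusted p. No explanation was tested.

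Among the signalling genes these were FGFR1 (adjusted p = 9.2e-04) and FGFR3 (0.0218), both further apart in the resistant lines, the ERK products SPRY1 (1.2e-04), ETV4 (1.3e-04), CCND1 (1.3e-04) and EGR1 (1.5e-05), the p38 activator MAP3K5 (3.9e-05) and the ERBB3 ligand NRG1 (4.2e-05).

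The order of the lines was reversed between sensitive and resistant cells in PRDM1 (adjusted p = 9.6e-06), MYO10 (9.4e-06), NPR3 (8.5e-04), RGCC (4.2e-05), SLC22A3 (0.0362), EDN1 (0.0110), FN1 (6.3e-06), TIMP1 (6.3e-06) and SOX2 (5.5e-05).

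A difference was present in the resistant lines and not called in the sensitive lines for ALDH1A2 (adjusted p = 0.0272), SRARP (9.1e-04), RUNDC3B (0.00246), MAML3 (0.0207), TMEM229A (0.00657) and LBH (0.00167). ABCG2 (0.00310) belonged to the same class, while HOXC10 (6.3e-06) differed in both and by more in the resistant lines.

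The reverse, a difference in the sensitive lines and none called in the resistant lines, held for GCG (adjusted p = 2.0e-04), PTN (0.0112), DGKI (8.8e-04), CLSTN2 (0.0159), CNTNAP4 (0.0713) and BIRC7 (0.0370).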

How the results depend on the processing

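Of the 9565 genes called between the resistant lines, 8503 were also called by DESeq2 (8762 calls), 9364 with the size factors of DESeq2 (9498), 8961 without a filter (8976), 9291 in a single fit of all 8 libraries (10440) and 8216 with offsets for GC content and length (9119), in the same direction but for 2 genes under the offsets. Those offsets moved the median of all genes by 0.13 on the log2 scale and the share of calls that were higher in NCI-H1703R from 49.25% to 56.78%. With a minimum of 10 counts per library, which leaves out the genes near 0 in 1 line, 786 genes were called at least 4-fold higher in NCI-H1703R and 773 in NCI-H1581R, and the correlation with the sensitive lines was 0.793 over 11943 genes.

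Leaving out 1 library at a time gave 6120 to 10361 calls, 3017 to 5108 higher in NCI-H1703R and 3103 to 5253 higher in NCI-H1581R, 1677 to 2116 and 2037 to 2391 of them at least 4-fold apart, 1571 to 4141 calls of the interaction, and a correlation of 0.700 to 0.707. The line left with 1 sample was assumed to vary like the other. The replicate number as a block gave 7638 calls, 7554 of them shared, and 3437 calls of the interaction, and the pairing is not given by the labels. With crossed replicate numbers, chosen after seeing the data, there were 11063 calls.

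Differences that were not called changed sign under some settings. With the GC and length offsets the log2 difference was -0.0745 for MAPK14, 0.0948 for COL1A1 and 0.186 for GCG. With 1 library left out it ranged from -0.116 to 0.141 for MAPK14, -0.482 to 0.159 for COL1A1, -0.413 to 0.236 for GCG, -0.912 to 0.0216 for DGKI and -2.31 to 3.18 for CNTNAP4. The calls of BIRC5 and MAGEA4 were lost with the GC and length offsets (both adjusted p = 0.106), and those of TGFB1, CDKN2A and EGFL7 were made (0.0606, 0.0792 and 0.0136). FGFR2 was called with the replicate block (0.0442) and without the first NCI-H1581R replicate (0.0540), and RB1 in the fit of all 8 libraries (0.0303). The causes were not tested. With 2 libraries per line, low genes limit these comparisons: a gene at 3 counts or fewer in a line gives a bound or a wide interval.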
